A study of Mus musculus with 40 samples.

Results

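Cells make cholesterol from acetyl-CoA through the mevalonate pathway, which also supplies isoprenoids, and through a series of sterol steps that follow squalene. The transcription factor SREBP2 switches on most of these enzymes when sterols in the endoplasmic reticulum run low, and the INSIG proteins hold it back when sterols are plentiful. White adipose tissue is a large store of cholesterol, held mainly in the lipid droplet and the plasma membrane of adipocytes, and it takes up more of its cholesterol than it makes. The 34 genes described here cover that traffic and were taken from a list by role. The rule held no measured value, but the list was chosen with earlier results of these data known. They comprise 8 enzymes of the mevalonate and isoprenoid steps, 12 enzymes of the squalene and sterol steps, 4 genes of SREBP2 control, the sterol carrier Stard4, 4 genes of uptake and lysosomal handling, the esterifying enzyme Soat1 and 4 genes of efflux. All 34 were among the 34843 symbols of the count table, and all 34 passed the filter on low counts that left 15807 genes.

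The samples were mouse subcutaneous white adipose tissue in 5 groups of 8 libraries. These were mice on normal diet (ND), mice on high-fat diet (HFD), HFD mice given semaglutide, an agonist of the GLP-1 receptor, HFD mice given tirzepatide, an agonist of the GIP and GLP-1 receptors, and HFD mice moved to ND (diet switch). Strain, sex, age, dose and duration were not given in the sources used here, nor is it stated whether the diet-switch mice had first received a drug, which the series title leaves possible. The labels do not tie libraries to separate animals, so each p-value reflects only the spread among these samples, which may be technical. The design asks which HFD changes persist and which are reversed under incretin analogs.

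Each library held 2115471 to 7445548 counts, with a median of 3765320. Adipocyte markers had group means of 10.1 to 10.44 on a log2 scale of counts per library size (CPM) and were no lower than 9.48 in any library. Skeletal muscle markers averaged above 5 log2 CPM in 10 libraries, which were 2 of ND, 1 of HFD, 4 of tirzepatide and 3 of the diet switch. B cell markers averaged above 5 in ND 5 and in semaglutide 1, 3 and 8. Diet-switch libraries 3, 4 and 7 stood apart in an earlier analysis of these data, so counts were also taken without them. Epithelial markers of mammary gland lay at 0.55 or lower in every library. In bulk tissue, fewer cells of a type and less RNA per cell cannot be told apart.

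A gene is called when its Benjamini-Hochberg adjusted p from edgeR's quasi-likelihood test, taken over all 15807 genes, is under 0.05. Fold changes are log2 with their SE and 8 libraries per group. Levels are CPM scaled by TMM, given as the median with the lowest and highest library in brackets. QuantSeq counts transcript ends, so CPM carries no length scale. Levels are not compared between genes here.

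Feeding HFD changed little of the set. Hmgcs1, the cytosolic HMG-CoA synthase that feeds the mevalonate pathway, rose by 1.08 ± 0.23 over ND (adjusted p = 0.00245 in edgeR). Apoe, the apolipoprotein that carries cholesterol out of cells, fell by 1.08 ± 0.15 (adjusted p = 3.46e-06). The other 32 genes were not called. These counts of 1 of 34 higher and 1 of 34 lower stand beside 2.83% and 1.68% of all tested genes, so the set as a whole lay near the background.

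**Figure D1:**
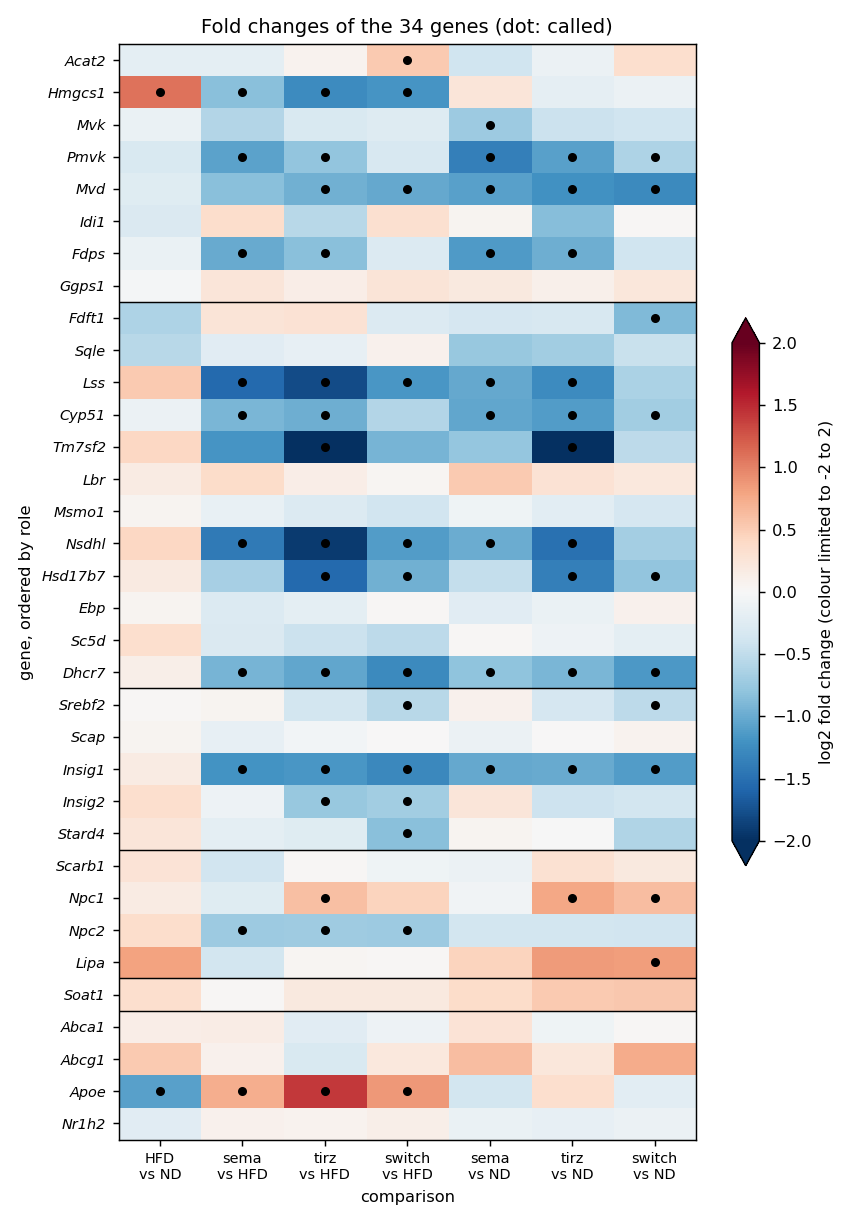
Log2 fold change of each of the 34 genes (rows, by role, separated by lines) in the HFD comparison and in each treatment against HFD and against ND (columns), with a dot where the gene was called. Blue cells with dots gather among the synthesis enzymes and Insig1 in the treatment columns, while the HFD column has dots only at Hmgcs1 and Apoe.

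Under the 3 treatments, part of the synthesis pathway fell below its HFD level. Against HFD, semaglutide lowered 9 of the 34 genes and raised 1, where 2.63% of all tested genes were lower and 1.52% higher. Tirzepatide lowered 13 and raised 2, beside 10.7% and 9.79% of all genes. The diet switch lowered 11 and raised 2, beside 10.9% and 12.8%. The share of lower genes among the 34 was thus above the background in each comparison, and the higher genes were few. Because the list was chosen with earlier results of these data known, these shares are a description and not an independent test. Without diet switch 3, 4 and 7, 6 of the 13 switch calls were left (1 higher and 5 lower), and 1148 genes were called where 3759 had been. The median log2 fold change of the 34 genes was -0.26, -0.30 and -0.28 in these comparisons, against 0.05, 0.03 and 0.03 over all tested genes. The 3 comparisons share the HFD libraries and are not independent of each other.

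Against ND, semaglutide lowered 9 genes and raised none, beside 1.73% and 0.905% of all genes, and at an unadjusted p under 0.05 edgeR gave 13 lower and 1 higher. DESeq2 also called 9 lower and none higher. In edgeR, 5 lower calls were left with no filter, 5 with replicate number in the model and 5 without the libraries high in B cell markers. Tirzepatide lowered 10 and raised 1, beside 5.77% and 4.3%. The diet switch lowered 8 and raised 2, beside 6.82% and 7.97%. The medians were -0.18, -0.26 and -0.34, against 0.03, 0.00 and 0.00 over all genes. These comparisons share the ND libraries with each other and their treated libraries with the comparisons above.

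The 20 synthesis enzymes together averaged 4.58 ± 0.27 log2 CPM in ND (SD, n = 8) and 4.64 ± 0.18 in HFD. They averaged 4.10 ± 0.18 with semaglutide, 3.91 ± 0.24 with tirzepatide and 4.17 ± 0.24 after the diet switch. HFD libraries ran from 4.41 to 4.96, and all semaglutide, tirzepatide and diet-switch libraries lay at or below 4.47, so HFD and the treated groups overlapped only between 4.41 and 4.47. ND libraries, from 4.24 to 5.04, overlapped each treated group. Single libraries carried many enzymes up together: tirzepatide 8 was above its group's median for 18 of the 20 enzymes, and HFD 5, ND 2 and semaglutide 4 were for 17 each.

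**Figure D2:**
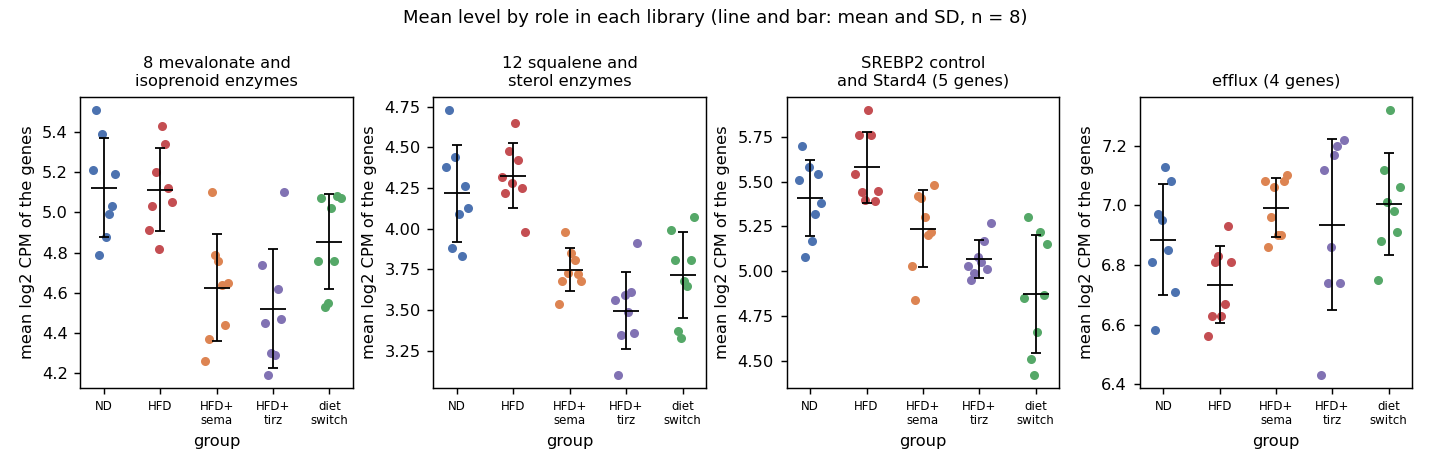
Mean log2 CPM of the genes of 4 roles in each library (points), with the group mean and SD (n = 8), for the 5 groups on the horizontal axis. The 2 panels of synthesis enzymes and the panel of SREBP2 control genes with Stard4 have lower means in the treated groups than in HFD, while the efflux panel overlaps in all groups.

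Of the 8 mevalonate and isoprenoid genes, semaglutide lowered 3, tirzepatide 4 and the switch 2 against HFD, and the switch raised 1. Hmgcs1 (chr13:119690379-119708260, GRCm38, plus strand) had a median of 144 CPM in ND (92 to 208), 327 in HFD (208 to 390), 161 with semaglutide (55.8 to 327), 124 with tirzepatide (72.2 to 186) and 126 after the switch (90.6 to 215). All 8 tirzepatide libraries lay below the lowest HFD library, while the semaglutide group spread from below the lowest ND library up to the HFD median. Against HFD it fell, at -0.84 ± 0.23 with semaglutide (adjusted p = 0.0267 in edgeR), -1.26 ± 0.23 with tirzepatide (0.000148) and -1.18 ± 0.23 after the switch (0.000299). Against ND the values were 0.24 ± 0.23, -0.18 ± 0.23 and -0.11 ± 0.23, none of them called. The semaglutide call was lost when HFD 5, HFD 6 or semaglutide 1, 2 or 8 was left out, with an adjusted p of up to 0.0631, and at 0.0624 without the filter on low counts.

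Pmvk and Mvd, the kinase and the decarboxylase that turn phosphomevalonate into isopentenyl pyrophosphate, had lower medians in every treated group than in either diet. Pmvk had a median of 52.1 CPM in ND (34.4 to 98), 46 in HFD (33.1 to 66.8), 21.9 with semaglutide (18.9 to 28.6), 28.7 with tirzepatide (18.3 to 42.4) and 35.6 after the switch (21.1 to 56.9). The semaglutide libraries overlapped neither diet group. Pmvk fell, at -1.07 ± 0.19 against HFD and at -1.37 ± 0.19 against ND with semaglutide (adjusted p = 0.000336 and 6.2e-06 in edgeR), and at -0.79 ± 0.19 and -1.09 ± 0.19 with tirzepatide. After the switch it stood at -0.32 ± 0.19 against HFD, not called, and fell by 0.62 ± 0.19 against ND. The call against ND was lost without ND 1, ND 4 or diet switch 3 (adjusted p up to 0.0815 in edgeR). Limma-voom and edgeR on the compared groups alone lost it too. So did edgeR without the libraries high in muscle markers or without diet switch 3, 4 and 7 (adjusted p up to 0.249 over these fits).

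Mvd had a median of 18.6 CPM in ND (8.88 to 43.3), 18.5 in HFD (10.7 to 25.1), 10.1 with semaglutide (3.21 to 14.3), 7.92 with tirzepatide (4.75 to 15.6) and 7.51 after the switch (5.49 to 14.5). Its treated libraries were low as a group but overlapped both diets. It fell, at -0.96 ± 0.28 with tirzepatide and -1.02 ± 0.28 after the switch against HFD, where the semaglutide value was -0.84 ± 0.28 (adjusted p = 0.0729 in edgeR). Fdps, which makes farnesyl pyrophosphate, the last precursor shared by sterols and isoprenoids, had a median of 17.1 CPM in ND (8 to 35.9), 18.3 in HFD (9.49 to 28.7), 8.7 with semaglutide (5.81 to 13.1), 9.8 with tirzepatide (6.1 to 14.7) and 14.7 after the switch (6.82 to 27). It was low with both drugs and overlapped the diets throughout. Fdps fell, at -1.01 ± 0.26 with semaglutide and -0.84 ± 0.26 with tirzepatide against HFD, and stood at -0.28 ± 0.25 after the switch. Its semaglutide call was lost without HFD 5 (adjusted p = 0.0513), and its tirzepatide calls without the 10 muscle-high libraries (0.27 against HFD and 0.151 against ND), as were those of Mvd with tirzepatide (0.0605) and after the switch (0.0551) against HFD. The part of muscle in these values was not tested. The Mvd call after the switch against HFD was also lost without diet switch 3, 4 and 7 (adjusted p = 0.119 in edgeR). The exons of Fdps share 275 bases near the 3' end with Gm43738 on the same strand, so its counts are uncertain.

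The other 4 genes of these steps moved less. Acat2, a cytosolic acetyl-CoA acetyltransferase that supplies Hmgcs1, rose by 0.53 ± 0.15 after the switch against HFD (adjusted p = 0.00625 in edgeR). That call was lost without diet switch 3, 4 and 7 (adjusted p = 0.126 in edgeR), and Acat2 was not called with either drug. Mvk, mevalonate kinase, was called only with semaglutide against ND, at -0.73 ± 0.20. Idi1, which isomerises isopentenyl pyrophosphate, and Ggps1, which makes geranylgeranyl pyrophosphate, were called in none of the 10 comparisons. Against HFD, Idi1 stood at 0.35 ± 0.42, -0.56 ± 0.43 and 0.32 ± 0.42 with semaglutide, tirzepatide and the switch. Ggps1 stood at 0.24, 0.14 and 0.26, each ± 0.18.

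**Figure D3:**
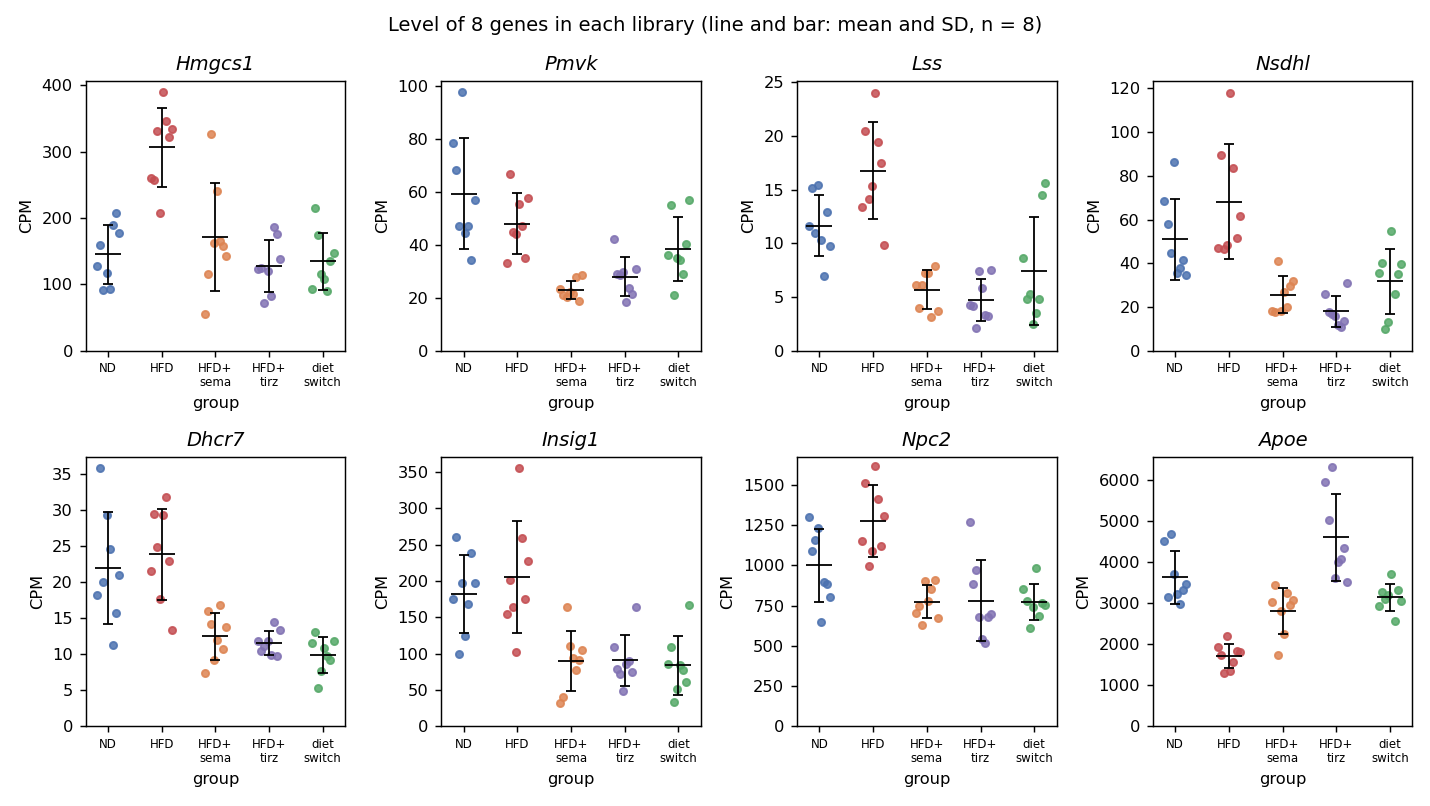
CPM of 8 genes in each library (points) by group, with the group mean and SD (n = 8) as line and bar. Hmgcs1 is high in HFD alone and Apoe low in HFD alone, while Pmvk, Lss, Nsdhl, Dhcr7 and Insig1 have lower medians in treated groups than in both diets.

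Of the 12 sterol genes, semaglutide lowered 4, tirzepatide 6 and the switch 4 against HFD, and none rose. Lss, the cyclase that forms lanosterol (chr10:76531588-76557138, plus strand), had a median of 11.3 CPM in ND (6.91 to 15.4), 16.4 in HFD (9.82 to 24), 6.08 with semaglutide (3.14 to 7.91), 4.21 with tirzepatide (2.1 to 7.47) and 5.06 after the switch (2.46 to 15.6). Neither drug group overlapped HFD, and the switch group had a pair of libraries in the HFD range. Lss fell, at -1.55 ± 0.29, -1.79 ± 0.29 and -1.16 ± 0.28 against HFD (adjusted p = 0.000542, 1.71e-05 and 0.00235 in edgeR). Against ND it fell, at -1.02 ± 0.29 with semaglutide and -1.26 ± 0.29 with tirzepatide, and stood at -0.64 ± 0.29 after the switch, not called.

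Nsdhl, which removes the methyl groups at carbon 4 of the sterol ring together with other enzymes (chrX:72918557-72958514, plus strand), had a median of 43.3 CPM in ND (34.7 to 86.4), 56.5 in HFD (46.7 to 118), 23.6 with semaglutide (17.9 to 41), 16.4 with tirzepatide (11.1 to 30.8) and 35.2 after the switch (9.89 to 54.9). No tirzepatide library reached the lowest library of either diet. Nsdhl fell, at -1.41 ± 0.27, -1.92 ± 0.28 and -1.11 ± 0.27 against HFD (adjusted p = 0.000948, 3.2e-06 and 0.00236 in edgeR), and the last was at 0.0532 without diet switch 3, 4 and 7. Against ND the values were -0.99 ± 0.27 with semaglutide and -1.50 ± 0.27 with tirzepatide, and the switch value of -0.68 ± 0.27 was not called.

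Dhcr7, the reductase that finishes cholesterol from 7-dehydrocholesterol, had a median of 20.6 CPM in ND (11.3 to 35.9), 23.9 in HFD (13.4 to 31.9), 12.9 with semaglutide (7.4 to 16.8), 11.5 with tirzepatide (9.78 to 14.5) and 10.3 after the switch (5.28 to 13.1). All diet-switch libraries lay below the lowest HFD library. Dhcr7 was the one sterol enzyme called against both diets in all 3 treatments. It fell, at -0.93 ± 0.20, -1.04 ± 0.20 and -1.27 ± 0.21 against HFD, and at -0.81 ± 0.20, -0.92 ± 0.20 and -1.15 ± 0.21 against ND.

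Tm7sf2, a sterol C14 reductase, showed its lowest values with tirzepatide. Its median was 4.19 CPM in ND (1.47 to 6.01), 4.85 in HFD (3 to 7.4), 1.75 with semaglutide (0.494 to 4.76), 0.547 with tirzepatide (0 to 1.66) and 2.44 after the switch (1.37 to 4.97). The tirzepatide libraries held 0 to 12 counts of it, so its fold change is loosely known, and none of them reached the HFD range. Tm7sf2 fell, at -2.82 ± 0.45 with tirzepatide against HFD (adjusted p = 1.46e-05 in edgeR) and at -1.65 ± 0.47 against semaglutide (0.0194). With semaglutide against HFD it stood at -1.18 ± 0.41, not called (adjusted p = 0.0839 in edgeR). DESeq2 (0.0396) and limma-voom (0.00782) called it lower there. For the switch against HFD, edgeR on the compared groups alone called Tm7sf2 lower, at -0.92 (adjusted p = 0.0307). Vps51, which shares 532 exon bases with it on the same strand away from the 3' end, fell too with tirzepatide, at -1.24 ± 0.33 (adjusted p = 0.00551), so reads of the 2 genes may be partly mixed.

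Cyp51, lanosterol 14-demethylase, fell, with values of -0.92 ± 0.25 with semaglutide and -0.98 ± 0.25 with tirzepatide against HFD, and stood at -0.58 ± 0.24 after the switch. Its semaglutide call ended without HFD 1 or semaglutide 1 (adjusted p up to 0.0561 in edgeR). Cyp51 shares 166 bases at its 3' end with Akap9 on the opposite strand, and whether counting used strand is not given in the sources used here. Hsd17b7, a 3-ketosteroid reductase, fell, with values of -1.55 ± 0.28 with tirzepatide and -0.96 ± 0.27 after the switch against HFD. The switch call was at 0.0561 without the muscle-high libraries and 0.124 without diet switch 3, 4 and 7. Its tirzepatide libraries, from 2.63 to 9.16 CPM, lay below all HFD libraries, from 12 to 27.5.

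The remaining 6 sterol enzymes were not called against HFD. Sqle, the squalene epoxidase that is often counted as a control point of the pathway, stood at -0.22 ± 0.30, -0.16 ± 0.30 and 0.09 ± 0.30 against HFD. Fdft1, squalene synthase, stood at 0.26, 0.29 and -0.27, each ± 0.22, and was called only after the switch against ND, at -0.88 ± 0.22 (adjusted p = 0.00674 in edgeR). Fdft1 shares 774 bases at its 3' end with Ctsb on the opposite strand. Msmo1, the methyl sterol oxidase that acts beside Nsdhl, Ebp, the sterol isomerase, Sc5d, the sterol C5 desaturase, and Lbr, which has the same reductase activity as Tm7sf2, were called in none of the 10 comparisons. With tirzepatide against HFD they stood at -0.27 ± 0.18, -0.19 ± 0.17, -0.43 ± 0.22 and 0.13 ± 0.39. A missed threshold does not show that these genes were unaffected.

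**Figure D4:**
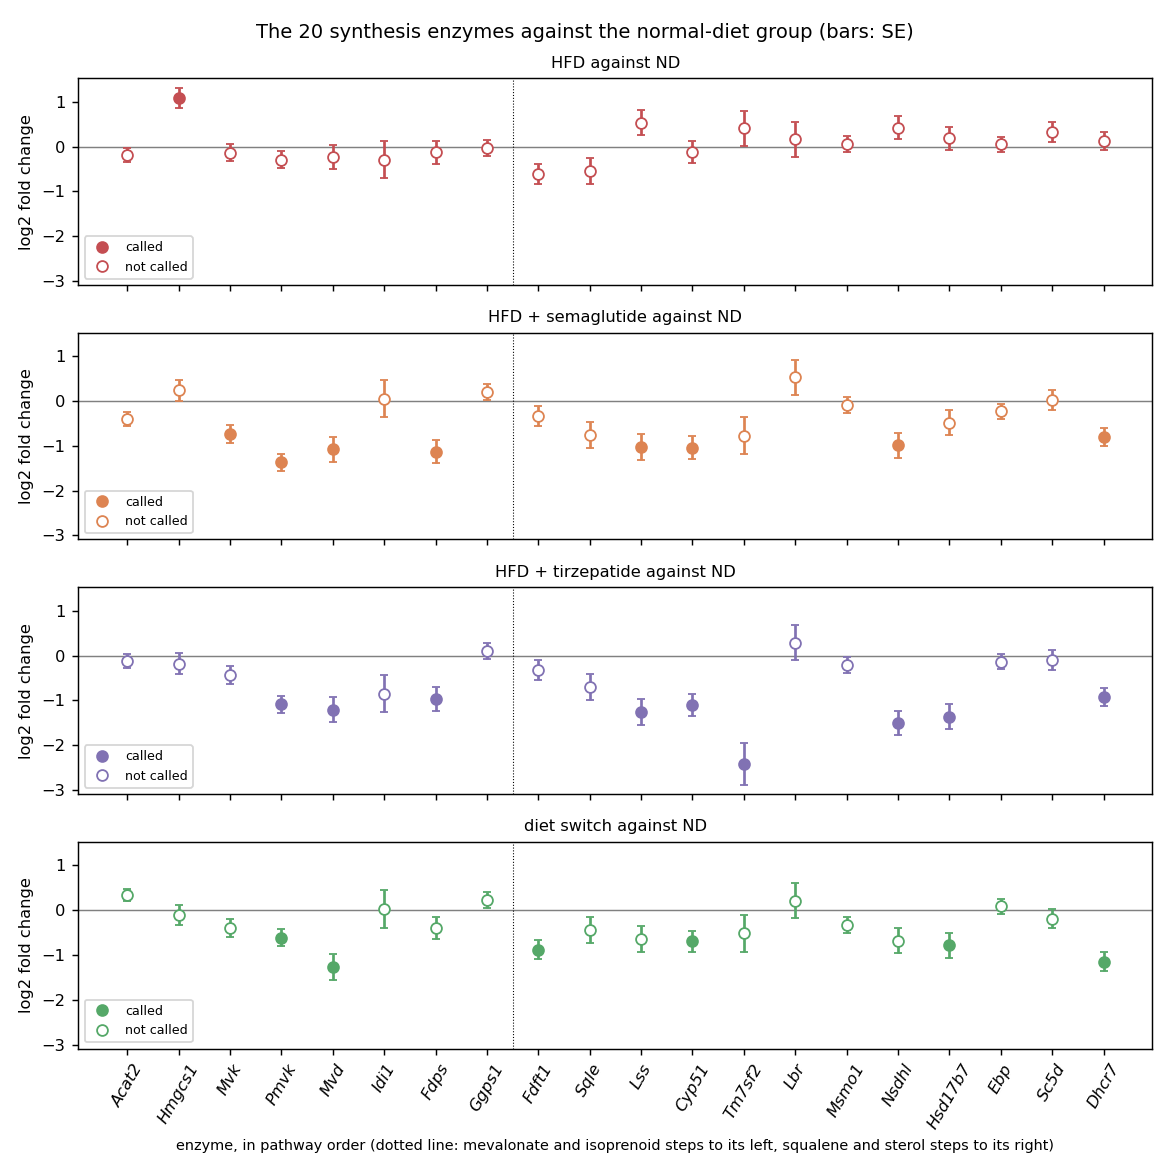
Log2 fold change with SE of the 20 synthesis enzymes against ND in pathway order, in 1 panel each for HFD, semaglutide, tirzepatide and the diet switch, with filled points where called. Only Hmgcs1 is filled in the HFD panel, and the filled points of the treated panels lie between -0.62 and -2.42 with open points among them along the whole pathway.

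Start regions of the enzymes were searched for 3 motifs tied to SREBP2 targets, in windows of 300 bases from 250 before to 50 after each start, on both strands. RefSeq windows on GRCm38.p6 matched 27 of the 34 genes, among them 17 of the 20 enzymes. Fdps, Fdft1 and Sqle had no window, so these enzymes were not searched for any of the motifs. The sterol regulatory element core TCACNCCAC was in 1.24% of all windows and in 1 member's, that of Hmgcs1. The NF-Y box CCAAT was in 37.4% of all windows and in those of 16 of the 17 enzymes (94.1%), where 42.6% of tested genes had it in any window. The Sp1 box GGGCGG was in 35.7% of all windows and in those of 15 of the 17 enzymes (88.2%), against 67.5% of tested genes. Enzymes with and without a call both held the NF-Y box, as Msmo1, Ebp, Sc5d, Idi1 and Ggps1 show. These matches describe letters, not bound sites. The 250 bases before the start of Hmgcs1 are shown because it holds the SRE core and rose on HFD, and those of Lss, Nsdhl and Insig1 because these fell under all 3 treatments. All 4 lie on the plus strand and are written 5′ to 3′, with matches to any of the motifs on either strand in capitals, and no 2 matches overlap. They span chr13:119690101-119690350, chr10:76531355-76531604, chrX:72918271-72918520 and chr5:28071162-28071411.
Hmgcs1: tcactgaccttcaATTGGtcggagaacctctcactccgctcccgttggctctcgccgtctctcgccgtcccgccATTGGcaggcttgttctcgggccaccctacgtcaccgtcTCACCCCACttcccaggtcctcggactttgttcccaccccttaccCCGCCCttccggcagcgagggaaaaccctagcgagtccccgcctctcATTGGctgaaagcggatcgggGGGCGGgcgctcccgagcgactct
Lss: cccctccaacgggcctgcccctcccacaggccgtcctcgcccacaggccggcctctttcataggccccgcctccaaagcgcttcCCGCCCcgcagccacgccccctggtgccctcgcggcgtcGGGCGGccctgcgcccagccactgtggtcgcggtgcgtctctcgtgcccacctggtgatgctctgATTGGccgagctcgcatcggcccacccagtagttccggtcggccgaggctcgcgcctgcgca
Nsdhl: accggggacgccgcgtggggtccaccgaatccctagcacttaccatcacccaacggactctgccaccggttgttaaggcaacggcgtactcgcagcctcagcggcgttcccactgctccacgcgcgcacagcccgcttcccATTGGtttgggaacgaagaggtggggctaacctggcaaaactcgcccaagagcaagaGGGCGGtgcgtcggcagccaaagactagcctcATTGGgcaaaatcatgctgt
Insig1: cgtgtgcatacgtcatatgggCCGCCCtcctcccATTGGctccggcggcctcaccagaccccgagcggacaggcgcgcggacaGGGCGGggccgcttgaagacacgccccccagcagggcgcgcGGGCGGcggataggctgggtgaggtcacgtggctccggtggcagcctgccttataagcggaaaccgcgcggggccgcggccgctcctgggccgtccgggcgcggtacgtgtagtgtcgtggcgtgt
Positions in the bases shown are counted from the RefSeq start. The SRE core of Hmgcs1 begins at -137, with NF-Y boxes at -237, -176 and -45 and Sp1 boxes at -92 and -24. The NF-Y box of Lss begins at -62, those of Nsdhl at -109 and -20, and that of Insig1 at -216. Past the start, and so not shown, Hmgcs1 had an NF-Y box at 11 and an Sp1 box at 33, and Nsdhl had NF-Y boxes at 9 and 35.

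**Figure D5:**
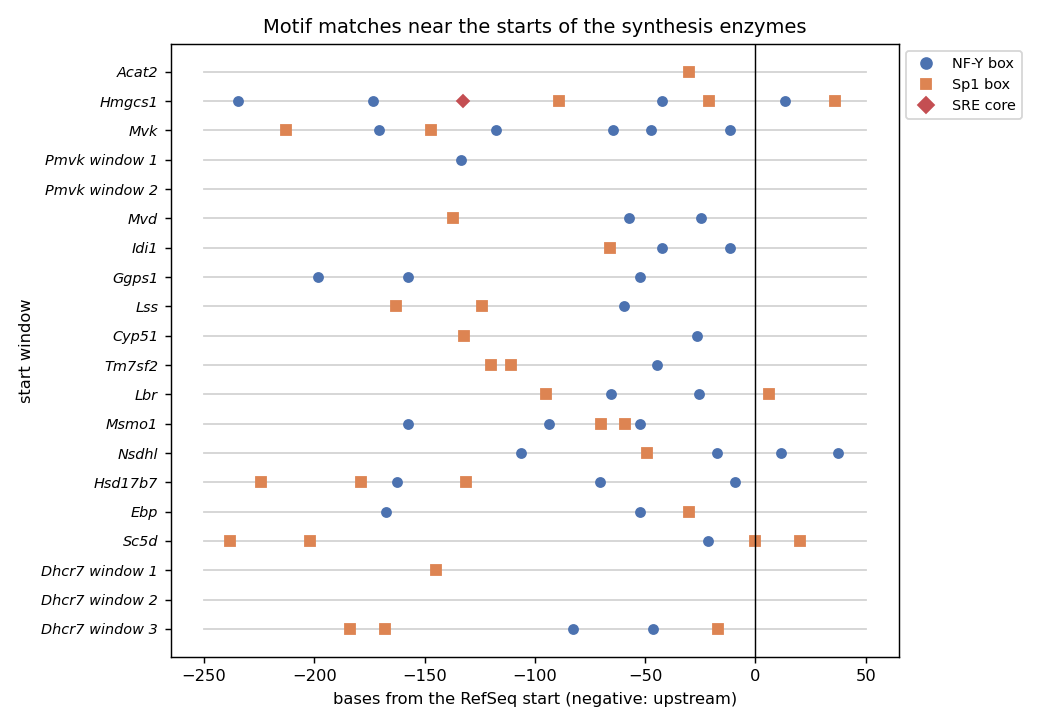
Position of NF-Y boxes, Sp1 boxes and SRE cores (markers) in the start windows of the 17 matched synthesis enzymes, in bases from the RefSeq start. The single SRE core is in Hmgcs1, and NF-Y boxes appear in 16 of the 17 genes, including enzymes that were not called.

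Of the 5 genes formed by SREBP2 control and Stard4, semaglutide lowered 1, tirzepatide 2 and the switch 4 against HFD, and none rose. Insig1, an INSIG protein that is itself a target of SREBP2 (chr5:28071363-28078662), fell in all 3 treatments against both diets. Its median was 186 CPM in ND (100 to 261), 188 in HFD (102 to 355), 92.6 with semaglutide (32.5 to 164), 82.9 with tirzepatide (49 to 165) and 81.1 after the switch (33.6 to 167). In each treated group the median lay below the lowest library of either diet. Insig1 fell, at -1.19 ± 0.29, -1.17 ± 0.29 and -1.29 ± 0.29 against HFD (adjusted p = 0.0105, 0.00325 and 0.00124 in edgeR) and at -1.03 ± 0.29, -1.01 ± 0.29 and -1.12 ± 0.29 against ND. Without the muscle-high libraries the tirzepatide calls were lost, at an adjusted p of 0.0519 against HFD and 0.199 against ND. Those of the switch and of semaglutide against ND were lost there too (0.075 and 0.072).

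Insig2, the INSIG protein that does not depend on SREBP2, had a median of 20.9 CPM in ND (13.7 to 30.8), 27.8 in HFD (15.8 to 35.4), 24.5 with semaglutide (14.5 to 32.3), 16.2 with tirzepatide (8.89 to 20.3) and 15.6 after the switch (9.23 to 29.3). It fell, at -0.76 ± 0.21 with tirzepatide and -0.70 ± 0.21 after the switch against HFD, and stood at -0.10 ± 0.20 with semaglutide. Srebf2, which encodes SREBP2, had a median of 62.3 CPM in ND (50.7 to 84.6), 65.5 in HFD (52.7 to 90.8), 57.9 with semaglutide (42.5 to 132), 50.5 with tirzepatide (41.8 to 66.7) and 41.2 after the switch (30 to 66.8). The semaglutide medians of both genes were the nearest of the treated groups to HFD. Srebf2 was lowest after the switch, while Insig2 was about equally low with tirzepatide and after the switch. Srebf2 fell by 0.55 ± 0.18 after the switch against HFD (adjusted p = 0.0213 in edgeR), a call lost without HFD 2, diet switch 3 or diet switch 5 (up to 0.0632). Scap, the escort of SREBP2, lay within 0.18 of 0 in all 10 comparisons and was called in none. Stard4, a cytosolic sterol carrier, fell by 0.84 ± 0.24 after the switch against HFD and stood at -0.19 ± 0.23 and -0.25 ± 0.23 with the drugs. Without diet switch 3, 4 and 7, the switch calls of Insig2, Srebf2 and Stard4 were all lost, with adjusted p of 0.111, 0.23 and 0.131.

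Npc2 and Npc1 together export cholesterol from lysosomes, and with tirzepatide against HFD they were called in opposite directions. Npc2, the soluble carrier that hands cholesterol to the membrane protein (chr12:84754562-84773152), had a median of 993 CPM in ND (651 to 1300), 1230 in HFD (995 to 1620), 763 with semaglutide (631 to 907), 691 with tirzepatide (520 to 1270) and 759 after the switch (610 to 986). Semaglutide and diet-switch libraries all lay below the lowest HFD library, and 1 tirzepatide library reached into the HFD range. Npc2 fell, at -0.72 ± 0.16, -0.71 ± 0.16 and -0.72 ± 0.16 against HFD (adjusted p = 0.00382, 0.00125 and 0.000842 in edgeR). Npc1, the membrane protein, had a median of 34.8 CPM in ND (29.3 to 48.2), 40.5 in HFD (26.3 to 62.7), 34.8 with semaglutide (29.1 to 42.9), 64.5 with tirzepatide (40.2 to 88.4) and 57.9 after the switch (37.1 to 72.5). It rose by 0.60 ± 0.17 with tirzepatide against HFD, by 0.77 ± 0.17 against ND, and by 0.83 ± 0.17 over semaglutide (adjusted p = 0.00152). After the switch it rose by 0.61 ± 0.17 over ND, a call lost without diet switch 3, 4 and 7 (adjusted p = 0.141 in edgeR). Over HFD it stood at 0.44 ± 0.17 after the switch (adjusted p = 0.051 in edgeR), not called. DESeq2 (0.0475), edgeR with replicate number in the model (0.0498) and limma-voom (0.0187) called it higher there. Npc1 shares 511 bases near its 3' end with Rmc1 on the opposite strand, and Rmc1 moved the other way with tirzepatide, at -1.12 ± 0.41 (adjusted p = 0.0467).

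Lipa, the lysosomal acid lipase that frees cholesterol from its esters, was called only after the switch against ND, at 0.84 ± 0.29, and 6 of 11 alternative fits lost that call (adjusted p up to 0.359). It stood at 0.81 ± 0.29 on HFD (adjusted p = 0.108 in edgeR) and 0.85 ± 0.29 with tirzepatide (0.0528) against ND, with 8 of 8 libraries above the ND median in each, where the switch had 5 of 8. Those 2 comparisons were called by DESeq2 (0.0473 and 0.0216), limma-voom (0.0157 and 0.0174), edgeR on the compared groups alone (0.000881 and 0.00854) and edgeR without diet switch 3, 4 and 7 (0.0175 and 0.00747). Scarb1, the HDL receptor SR-B1, was called only between the drugs, and Soat1, which esterifies free cholesterol, in none of the comparisons.

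In the efflux group Apoe alone was called, and it was lowest on HFD. Apoe (chr7:19696109-19699188, minus strand) had a median of 3390 CPM in ND (2980 to 4690), 1770 in HFD (1290 to 2190), 2990 with semaglutide (1740 to 3430), 4200 with tirzepatide (3510 to 6310) and 3140 after the switch (2570 to 3700). HFD lay below every ND, tirzepatide and diet-switch library, and only the semaglutide group reached into it. Apoe rose against HFD by 0.72 ± 0.15 with semaglutide, 1.42 ± 0.15 with tirzepatide and 0.87 ± 0.15 following the switch (adjusted p = 0.0024, 1.21e-08 and 4.91e-05 in edgeR). Against ND it stood at -0.37 ± 0.15, 0.34 ± 0.15 and -0.21 ± 0.15, none called. Macrophages also express Apoe, and 10 macrophage markers averaged 5.87 ± 0.24 log2 CPM in ND and 5.83 ± 0.12 in HFD (SD, n = 8). They averaged 5.68 ± 0.22 with semaglutide, 5.67 ± 0.56 with tirzepatide and 5.57 ± 0.56 following the switch, and their part in the Apoe values was not tested. The cholesterol transporters Abca1 and Abcg1 and the sterol sensor Nr1h2 (LXR beta) were called in none of the 10 comparisons. Abcg1 stood at 0.53 ± 0.27 on HFD and 0.74 ± 0.27 after the switch against ND (adjusted p = 0.322 and 0.0604). Other fits called Abcg1 higher in both: limma-voom (0.0394 and 0.00946), edgeR without the B cell-high libraries (0.037 and 0.00437) and, for the switch alone, DESeq2 (0.0461).

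Separation of whole groups was also counted. With tirzepatide against HFD, 6 of the 34 genes had no overlap (Hmgcs1, Lss, Tm7sf2, Nsdhl, Hsd17b7 and Apoe), beside 3.62% of all tested genes. With semaglutide there were 4 (Pmvk, Lss, Nsdhl and Npc2), beside 1.19%, and after the switch 3 (Dhcr7, Npc2 and Apoe), beside 2.54%. On HFD against ND only Apoe separated, beside 1.52%.

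Several calls against ND rested on single libraries. With semaglutide, Mvk, Mvd, Lss, Cyp51, Nsdhl, Dhcr7 and Insig1 were all lost without ND 2, which left 2 of 9 calls, Pmvk and Fdps. The highest adjusted p among them over these fits was 0.133 in edgeR, for Mvk. Without the 4 libraries high in B cell markers, 5 of the 9 calls were left. ND 1, 3, 4, 6, 7 and 8 and each semaglutide library also ended at least 1 of these calls. After the switch, Pmvk, Cyp51, Hsd17b7, Srebf2 and Lipa were lost on leaving out 1 or more libraries, with an adjusted p of up to 0.175, and the libraries were any of ND and any of the switch other than diet switch 2. Mvd, Fdft1, Dhcr7, Insig1 and Npc1 kept their calls in all 40 such fits. Without diet switch 3, 4 and 7, 2 of the 10 calls were left (Dhcr7 and Lipa), and without the muscle-high libraries 4 were. The 11 calls of tirzepatide against ND all held in the 40 fits.

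The treatments were also compared directly, at doses that are not stated. Tirzepatide gave 3 higher and 3 lower genes than semaglutide, beside 4.11% and 5.92% of all genes. Npc1 (0.83 ± 0.17), Apoe (0.71 ± 0.15) and Scarb1 (0.42 ± 0.14) were higher, and Tm7sf2 (-1.65 ± 0.47), Hsd17b7 (-0.89 ± 0.28) and Insig2 (-0.66 ± 0.21) lower. Of these 6 only Npc1 and Apoe held when each library was left out in turn. Tm7sf2 was lost without semaglutide 1 (adjusted p = 0.0605 in edgeR), Hsd17b7 without semaglutide 3, 5 or 7 or tirzepatide 1, 2 or 3 (up to 0.0933), Insig2 without semaglutide 3, 4, 5 or 7 or tirzepatide 2, 3 or 7 (up to 0.0787), and Scarb1 without any of 12 libraries (up to 0.104). The differences for Insig1 (0.02 ± 0.28), Lss (-0.24 ± 0.30) and Hmgcs1 (-0.42 ± 0.23) were not called, which does not show that the drugs act alike.

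The diet switch gave 3 higher and 2 lower genes than semaglutide, beside 7% and 6.29% of all genes. Acat2 (0.74 ± 0.15), Pmvk (0.74 ± 0.19) and Npc1 (0.67 ± 0.17) were higher, and Srebf2 (-0.61 ± 0.18) and Insig2 (-0.60 ± 0.21) lower. Srebf2 was lost without semaglutide 1 or 8 or diet switch 3 (adjusted p up to 0.0998 in edgeR), its value was -0.21 without the libraries high in B cell markers (0.453), and Insig2 without any of 15 libraries (up to 0.109). Against tirzepatide, the switch gave 1 higher gene and none lower, beside 0.285% and 0.114% of all genes. At an unadjusted p under 0.05, edgeR gave 8 higher and 3 lower. The 1 gene was Tm7sf2 (1.90 ± 0.46, adjusted p = 0.042), lost without HFD 4, any of 6 tirzepatide libraries or any of 4 diet-switch libraries (up to 0.0983), and DESeq2 called Apoe instead, at -0.55 (adjusted p = 0.0107).

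Of 40 further genes around the pathway, listed by role, 35 were tested. On HFD against ND 3 were higher and none lower, beside 2.83% and 1.68% of all tested genes. They were Vldlr, a lipoprotein receptor (0.96 ± 0.20), Pltp, the phospholipid transfer protein and an LXR target (1.19 ± 0.35), and Nus1, a subunit of the enzyme that makes dolichol precursors (1.06 ± 0.17). Against HFD, semaglutide lowered 4 and raised none, beside 2.63% and 1.52% of all genes. Tirzepatide lowered 5 and raised 1, beside 10.7% and 9.79%, so its lower count was near the background and its higher count under it. The switch lowered 9 and raised 2, beside 10.9% and 12.8%, so its lower count was above the background and its higher count under it. These lists too were chosen with earlier results of these data known, so the shares are a description. Vldlr fell in all 3, at -0.78 ± 0.20, -1.06 ± 0.20 and -0.59 ± 0.20, as did Lpcat3, a phospholipid acyltransferase and LXR target, at -0.98 ± 0.22, -0.92 ± 0.22 and -0.66 ± 0.21. Lrpap1, the chaperone of the LDL receptor family, fell, at -0.69 ± 0.17, -0.72 ± 0.17 and -0.74 ± 0.17. Mbtps1, the site-1 protease that cuts SREBP, was the gene raised by tirzepatide and 1 of the 2 raised by the switch. Its values were 0.31 ± 0.10 and 0.37 ± 0.10 (adjusted p = 0.0285 and 0.00729 in edgeR). The other gene raised by the switch was in the isoprenoid branch. Against ND none of the 35 was called with either drug, and after the switch 2 were higher and 1 lower, beside 7.97% and 6.82% of all genes.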

How the data were processed

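RNA was extracted with Nucleozol and sequenced as QuantSeq 3' end libraries on an Illumina HiSeq, per the labels' protocols. The genome build was mm10, per the submitters' processing notes. The aligner, counter, annotation and strand setting were not given in the sources used here. Raw read counts per gene symbol were deposited by the authors for 40 libraries and were used. Their deposited normalized signal table equals the counts divided by 1 factor per library. It was not used, and 16 of its columns match no sample and were used in nothing.

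Samples were grouped by the labels. In R 4.3.3, edgeR 4.0.16 fitted all 40 libraries in 1 quasi-likelihood model (TMM, default expression filter, robust) with 10 contrasts. P-values were adjusted by Benjamini-Hochberg over 15807 genes, which held 99.39% of counts. SE is the size of the log2 fold change over the root of F. Log2 CPM used a prior count of 2. Alternatives with DESeq2 1.42.0, limma 3.58.1 voom, other filters, a replicate block and left-out libraries were run, and the test was checked on simulated data. Every replicate pair differed by more than sampling noise (chi-square per degree of freedom 3.99 or more). Gene positions come from GENCODE M21 and start windows from RefSeq, both on GRCm38. The members and lists were chosen with earlier results of these data known. All 34 genes are accounted for. Levels in every group are given for genes called in 2 or more of the 7 comparisons against HFD or ND, at most the 4 of smallest adjusted p per role and the others by fold change or range.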

Additional observations from a re-analysis of the deposited data

Results flagged for a closer look

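In 5 of 170 gene and group sets, 1 library lay far from the other 7, where chance flags about 1 in 20. Diet switch 2 was high for Mvk, at 5.03 log2 CPM with the next library at 4.60. Diet switch 3 was low for Cyp51, at 2.79 with the next at 3.81. Semaglutide 2 was low for Mvd, at 1.90 with the next at 3.08, and semaglutide 3 was low for Scarb1, at 5.78 with the next at 6.35. Tirzepatide 1 was low for Msmo1, at 3.91 with the next at 4.64. Different libraries are involved in each, and Mvd with semaglutide against ND was among the calls lost without semaglutide 2.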

How the results depend on the processing

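No called gene changed direction under any alternative run, and the cause of each change of count was not tested. Counts of called members that moved by over 1.5 times were as follows. For HFD against ND, limma-voom gave 5 where edgeR gave 2. For the switch against HFD, 13 became 6 without diet switch 3, 4 and 7. For semaglutide against ND, 9 became 5 with no filter, 5 with the replicate block and 5 without the B cell-high libraries. For the switch against ND, 10 became 6 with no filter, 6 with the compared groups alone, 4 without muscle-high libraries and 2 without diet switch 3, 4 and 7. For tirzepatide against semaglutide, 6 became 2 without muscle-high libraries. For the switch against semaglutide, 5 became 3 with the compared groups alone and 2 without diet switch 3, 4 and 7. For the switch against tirzepatide, 1 became 2 without B cell-high libraries, 2 without diet switch 3, 4 and 7, and 0 with no filter, the compared groups alone, the replicate block, limma-voom or muscle-high libraries left out. At an unadjusted p under 0.05 those fits gave 7, 4, 6, 7 and 5 higher and 3, 3, 3, 3 and 2 lower, and DESeq2 called 1. Leaving out each library in turn gave 2 to 10 calls for semaglutide against ND, 5 to 13 for the switch against ND, 3 to 6 for tirzepatide against semaglutide and 0 to 4 for the switch against tirzepatide. Whether replicate numbers pair the libraries was left undecided. Of 80 same-number pairs, 18 had r over 0.1, and the mean r was 0.0291, where other numbers had -0.00369. For 11 of 40 libraries the best partner in another group had their own number. The values expected without pairing were not computed, so this check cannot exclude a pairing. With the block, the other counts were 2, 10, 15 and 14 for HFD against ND and the 3 treatments against HFD, 11 and 7 for tirzepatide and the switch against ND, and 5 and 5 for tirzepatide and the switch against semaglutide. Low counts limit Tm7sf2 most, with 0 to 12 per tirzepatide library.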
